A study of Mus musculus with 8 samples.

Results

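The sarcomeric myosin heavy chains are the motor proteins of the thick filament in striated muscle. The genes described here are *Myh1*, *Myh2*, *Myh3*, *Myh4*, *Myh6*, *Myh7*, *Myh8* and *Myh13*, chosen by symbol, which gave 8 of the 41709 genes listed. Their mRNA was measured by RNA-seq in 8 tibialis anterior (TA) muscles of 4 C57BL/6J mice, all male and 3 months old, collected 7 days after electroporation. In each mouse one TA muscle received a pool of siRNAs against *Uba1*, which encodes the main E1 enzyme that activates ubiquitin, and the opposite TA muscle received a pool of non-targeting (NT) siRNAs. Both groups therefore carried the injection, the hyaluronidase pretreatment and the electric pulses, and no untouched muscle was analyzed here. The muscles are called NT or Uba1 replicates 1 to 4, and the same number marks both legs of a mouse. All NT muscles carry the letter R and all Uba1 muscles the letter L in the labels, so leg and siRNA cannot be told apart. The treatment tags of Uba1 replicates 2, 3 and 4 read UBA2, UBA3 and UBA4, whereas their titles and descriptions name UBA1, and the latter were used.

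A myofiber is typed by the myosin heavy chain that it makes, since each isoform hydrolyzes ATP at its own rate. *Myh4* encodes the type 2b chain of the fastest fibers, *Myh1* the type 2x chain, *Myh2* the type 2a chain and *Myh7* the slow chain of type 1 fibers and of the heart. *Myh3* and *Myh8* encode the embryonic and perinatal chains, which are made during development and again when fibers regenerate. *Myh6* encodes the fast chain of the heart, and *Myh13* the chain of extraocular and laryngeal muscles. The mouse TA is a fast muscle with very few type 1 fibers.

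The values are transcript abundances (TPM), which are scaled by gene length and can therefore be compared between genes as well as between muscles. Every muscle totals 1000000 TPM, which hides the number of reads behind a value. The labelled tissue was checked against 6 skeletal muscle markers (*Ckm*, *Acta1*, *Mb*, *Des*, *Myoz1* and *Pygm*), which summed to 61753 to 65514 TPM with NT siRNAs and to 52049 to 69363 TPM with Uba1 siRNAs. For *Uba1* itself the NT muscles averaged 60.6 ± 2.11 TPM and the Uba1 muscles 15.9 ± 6.83 TPM (SD, n = 4 each), and the groups did not overlap. The log2 fold change of *Uba1* was -1.98 (limma adjusted p = 0.0527, and 0.0278 with the mouse as a block). Uba1 replicate 2 had the least *Uba1* mRNA, at 6.77 TPM, and the largest share of TPM from the mitochondrial genome, at 50.3% against 39.9% to 46.5% in the other 7 muscles. Markers of osteoblasts summed to 0.972 to 3.94 TPM with NT siRNAs and to 3.27 to 28.0 TPM with Uba1 siRNAs.

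Of the 8 genes, 6 lie side by side on the plus strand of chromosome 11 and 2 on the minus strand of chromosome 14 (GRCm39, GENCODE M39). On chromosome 11 the order is *Myh3* (66969126 to 66993117), *Myh2* (67061838 to 67088989), *Myh1* (67089132 to 67116631), *Myh4* (67128336 to 67151274), *Myh8* (67167746 to 67199462) and *Myh13* (67212484 to 67262413). *Myh2* and *Myh1* are annotated only 142 bases apart, whereas 68720 bases separate *Myh3* from *Myh2*. On chromosome 14, *Myh6* (55179367 to 55205887) lies 2253 bases from *Myh7* (55208141 to 55232084). The antisense lncRNA *Myhas* (chromosome 11, 67102082 to 67128720, minus strand) overlaps 907 exonic bases of *Myh1* and 383 of *Myh4*. The library kit does not mark strand, so reads from these stretches cannot be assigned to one of the partners. *Myhas* averaged 46.9 ± 10.5 TPM in NT and 52.3 ± 4.88 TPM in Uba1 muscles (SD, n = 4 each), low beside *Myh4* and *Myh1*.

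These genes are close copies of one another, which bears on how well short reads can separate them. The coding sequence of *Myh1* is 91.12% identical to that of *Myh2* and 90.25% identical to that of *Myh4*, and *Myh6* and *Myh7* are 91.69% identical. *Myh3* is 77.18% to 81.46% identical to the other 7. A stretch of 60 coding bases (positions 1003 to 1062 of the coding sequence, counted from the A of the start codon, GENCODE M39 transcripts) shows where reads can tell 4 of them apart, with the bases that differ from *Myh4* in capitals:
Myh4: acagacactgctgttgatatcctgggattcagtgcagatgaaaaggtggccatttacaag
Myh1: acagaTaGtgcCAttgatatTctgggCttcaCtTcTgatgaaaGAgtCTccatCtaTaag
Myh2: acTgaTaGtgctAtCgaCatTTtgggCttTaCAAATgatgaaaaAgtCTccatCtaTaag
Myh8: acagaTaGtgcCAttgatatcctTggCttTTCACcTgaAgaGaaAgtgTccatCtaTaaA
In this stretch *Myh1* differs from *Myh4* at 15 bases, *Myh8* at 19 and *Myh2* at 20. Other stretches are the same in several members. The longest run shared by *Myh1* and *Myh2* is 268 coding bases, and *Myh6* and *Myh7* share one of 245. Of all 100-base windows of a member's transcript, the length of 1 read, 1.15% for *Myh3*, 3.89% for *Myh4*, 7.82% for *Myh1*, 8.20% for *Myh2*, 6.61% for *Myh8*, 3.45% for *Myh13*, 11.2% for *Myh6* and 11.4% for *Myh7* occur unchanged in another member. Reads from such windows could be counted under either gene, and how the study's software assigned them is not stated. These shares are of a member's own windows, so they do not bound the reads that an abundant member could lend a rare one. The levels of *Myh2*, *Myh8* and *Myh13* beside the far more abundant *Myh4* and *Myh1*, and of *Myh6* and *Myh7* beside each other, are uncertain.

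Upstream of the annotated starts, 3 of the genes have the letters TATAAA (in capitals) at a like distance, shown here because the most abundant adult chains and the embryonic chain share them. The sequences are those of RefSeq on GRCm38.p6, which is another build than that of the positions above:
Myh4 (chr11:67237771-67237800, plus strand): gaacagcctcTATAAAagtgaagctggggt
Myh1 (chr11:67200060-67200089, plus strand): tatttgatccTATAAAagtaccccttggaa
Myh3 (chr11:67078261-67078290, plus strand): agtggtggccTATAAAagcccagggggcag
The T that opens the motif lies 31, 32 and 29 bases before the start of *Myh4*, *Myh1* and *Myh3*. All 8 genes had an entry in the promoter table. Over the 250 bases before the start and both strands, TATAAA was found for these 3 genes and *Myh8*, against 12.4% of the 32851 promoters in the table. CANNTG, the E-box bound by myogenic factors such as MyoD, was found for *Myh3*, *Myh4*, *Myh8*, *Myh13*, *Myh6* and *Myh7* and for 66.2% of all promoters. These matches describe letters in a window and not binding.

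The 8 genes spanned more than 4 orders of magnitude, and *Myh4*, *Myh1* and *Myh2* held the top of their order in every muscle. Mean TPM over the 8 muscles were 15776 for *Myh4*, 3776 for *Myh1*, 157 for *Myh2*, 10.1 for *Myh3*, 8.85 for *Myh8*, 2.00 for *Myh13*, 1.35 for *Myh6* and 0.961 for *Myh7*. *Myh4* ranked 17 and *Myh1* 31 among all genes listed, while *Myh7* ranked 11590. *Myh4* exceeded *Myh1*, *Myh1* exceeded *Myh2*, *Myh2* exceeded *Myh3* and *Myh13* exceeded *Myh6* in 8 of 8 muscles. The neighbors *Myh3* and *Myh8* did not differ beyond their spread, with *Myh3* higher in 6 of 8 muscles by a median ratio of 1.13. *Myh8* exceeded *Myh13*, and *Myh6* exceeded *Myh7*, in 7 of 8 muscles, and in both cases the exception was Uba1 replicate 2. In that muscle the 5 genes below *Myh2* came in another order, with *Myh7* at 2.88, *Myh13* at 1.68, *Myh6* at 1.28, *Myh8* at 0.994 and *Myh3* at 0.760 TPM. The 8 genes made up 1.68% to 2.32% of all TPM.

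**Figure D1:**
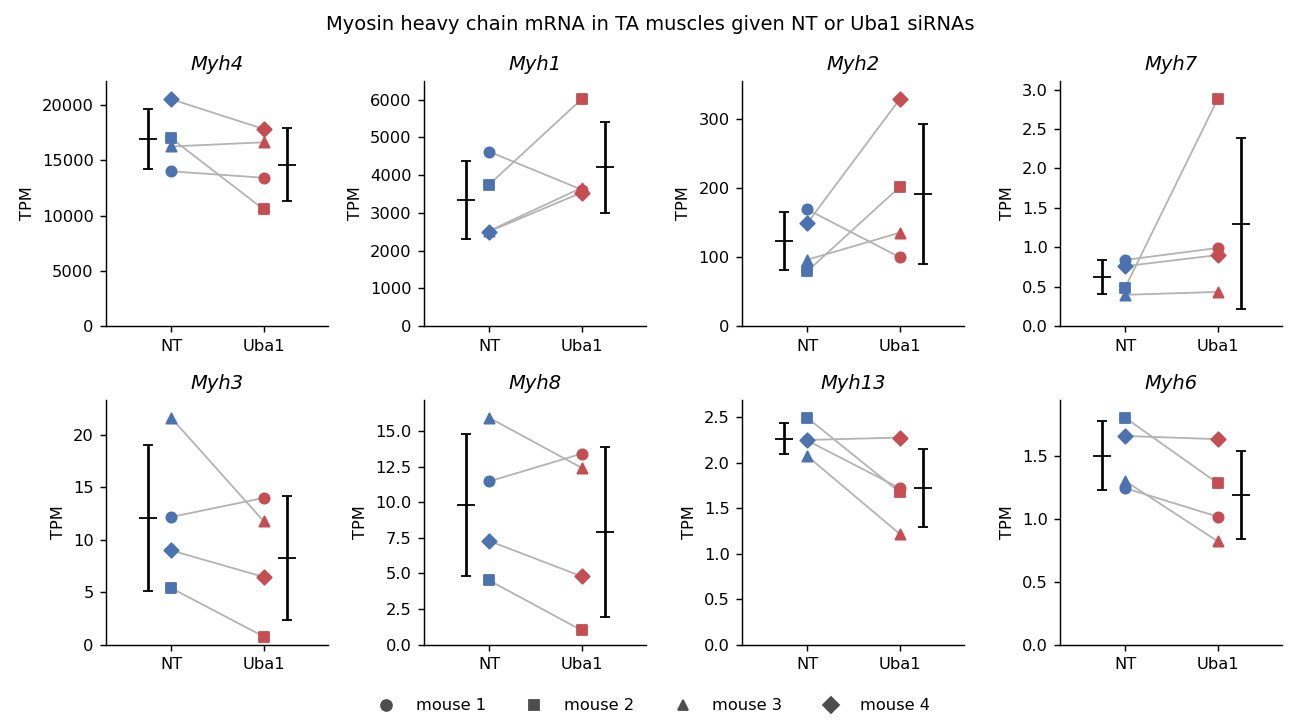
TPM of the 8 myosin heavy chain genes in each TA muscle (linear axes from 0, a scale for each gene), with NT muscles in blue, Uba1 muscles in red, a marker shape and gray line for each mouse, and black bars for the mean ± SD of 4 muscles. In each of the 8 panels the groups overlap, and the muscle of mouse 2 with Uba1 siRNAs is the highest for *Myh1* and *Myh7* and the lowest for *Myh4*, *Myh3* and *Myh8*.

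Whether *Uba1* siRNAs altered the mRNA of any of these chains was asked by comparing the 4 Uba1 with the 4 NT muscles. No chain differed past an adjusted p of 0.05 with all 8 muscles in the fit, while *Myh1* and *Myh2* did in the fit with the mouse as a block once mouse 1 was left out, as given further on. Of the 8 genes, 7 passed the filter of 1 TPM or more in at least 4 muscles and were tested with limma on log2(TPM + 1), and 0 of these 7 were called, against 0.0260% of the 11530 genes tested (3 genes). At an unadjusted p under 0.05, 0 members were higher and 1, *Myh13*, was lower, against 16.0% of all genes higher and 1.98% lower. The Kruskal-Wallis test found 0 members at an unadjusted p under 0.05, beside 2210 of all genes, and its 0 calls say nothing of the members, since its smallest adjusted p over the whole table was 0.180. The 2 groups overlapped for all 8 members, whereas they did not overlap for 11.6% of all genes tested. The log2 fold changes (log2FC, Uba1 minus NT) of the 7 genes had a median of -0.23, beside 0.11 over all genes tested, of which 81.8% were above 0. Median-ratio scaling moved the median of all genes to 0.0016, so each log2FC here is to be read against a common shift of about 0.11. On this scale a fold change understates that of genes with low TPM.

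*Myh4*, the type 2b chain and the most abundant of the 8, was at 13996, 17005, 16248 and 20528 TPM in NT replicates 1 to 4, and at 13419, 10560, 16625 and 17829 TPM in Uba1 replicates 1 to 4. The lowest value was that of Uba1 replicate 2, and the other 3 Uba1 muscles lay near or within the NT range. The means were 16945 ± 2710 and 14608 ± 3279 TPM (SD, n = 4 each). The log2FC was -0.23 (standard error, SE, 0.178, 95% confidence interval -0.63 to 0.17, limma adjusted p = 0.486). Compared within mice, *Myh4* was higher with Uba1 siRNAs in 1 of 4, with ratios from 0.621 in mouse 2 to 1.02 in mouse 3. The log2FC was -0.083 without Uba1 replicate 2 and -0.13 without NT replicate 4.

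*Myh1*, the type 2x chain, was at 4620, 3746, 2519 and 2504 TPM in NT replicates 1 to 4 and at 3613, 6010, 3662 and 3535 TPM in Uba1 replicates 1 to 4. Uba1 replicate 2 stood above all other muscles, and the other 3 Uba1 muscles lay inside the NT range. The means were 3347 ± 1029 and 4205 ± 1204 TPM (SD, n = 4 each), with a log2FC of 0.34 (SE 0.238, interval -0.20 to 0.88, limma adjusted p = 0.441). *Myh1* was higher with Uba1 siRNAs in 3 of 4 mice (ratios 1.60, 1.45 and 1.41 in mice 2, 3 and 4) and lower in mouse 1 (0.782). Without NT replicate 1 the log2FC was 0.51, with an unadjusted p under 0.05 (limma adjusted p = 0.337), while without Uba1 replicate 2 it was 0.16 and without NT replicate 3 or 4 it was 0.22.

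*Myh2*, the type 2a chain, was at 169, 79.0, 95.9 and 149 TPM in NT replicates 1 to 4. In Uba1 replicates 1 to 4 it was at 99.7, 201, 135 and 329 TPM. Uba1 replicates 2 and 4 were above every NT muscle and replicates 1 and 3 were within the NT range. The log2FC was 0.55 (SE 0.366, interval -0.27 to 1.38, limma adjusted p = 0.420), and *Myh2* was higher in 3 of the 4 mice, with mouse 1 again the exception (ratio 0.590). Without Uba1 replicate 1 the log2FC was 0.82, with an unadjusted p under 0.05 (limma adjusted p = 0.338), and it was 0.25 without Uba1 replicate 4 and 0.36 without NT replicate 2. The interval of *Myh2* reaches from a lower level to one more than 1 log2 unit higher, so 4 muscles a group did not resolve its direction. The osteoblast markers *Ibsp* (log2FC 1.86, limma adjusted p = 0.197) and *Bglap* (log2FC 1.22, limma adjusted p = 0.174) were also highest in Uba1 replicates 2 and 4. Their r with *Myh2* over the 8 muscles was 0.85 and 0.82. The other marker on that list, *Sp7*, was under 1 TPM in all muscles and highest in Uba1 replicates 2 and 3, with an r of 0.52. The part of these markers in the *Myh2* values was not tested.

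*Myh7*, the slow chain, was close to the lower end of the measured values, at 0.839, 0.487, 0.396 and 0.760 TPM in NT replicates 1 to 4 and at 0.991, 2.88, 0.433 and 0.901 TPM in Uba1 replicates 1 to 4. It was under 1 TPM in all muscles but Uba1 replicate 2, and was therefore not in the limma test. In each of the 4 mice the Uba1 muscle was the higher of the pair, with ratios of 1.18, 5.91, 1.09 and 1.19. The difference of log2(TPM + 1) was 0.41 (exact permutation test, two-sided, p = 0.200). An exact sign-flip test over the 4 pairs gave p = 0.125, which is the smallest it can give. Without Uba1 replicate 3, the Uba1 muscle with the least *Myh7*, the difference was 0.61 (exact permutation p = 0.0286), and without Uba1 replicate 2 it was 0.13. In bulk muscle RNA, more fibers of a type and more of its mRNA per fiber cannot be told apart, which holds for all values here.

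The composition of the myosin mRNA does not depend on the scaling between muscles, since each gene is taken as a share of the summed TPM of the 8. *Myh4* made up 74.4%, 81.6%, 85.9% and 88.5% of the sum in NT replicates 1 to 4 and 78.2%, 62.9%, 81.3% and 82.1% in Uba1 replicates 1 to 4. *Myh1* made up 24.6%, 18.0%, 13.3% and 10.8% in the NT muscles and 21.1%, 35.8%, 17.9% and 16.3% in the Uba1 muscles. These 2 genes filled almost all of the sum, so that one share was close to the complement of the other. The share of *Myh4* was 82.6% ± 6.17 in NT muscles and 76.1% ± 8.96 in Uba1 muscles (SD, n = 4 each), a difference of -6.46 percentage points (Uba1 minus NT, exact permutation test, two-sided, p = 0.286). For *Myh1* the shares were 16.7% ± 6.05 and 22.8% ± 8.92 (exact permutation p = 0.371). For *Myh2* they were 0.606% ± 0.222 and 0.989% ± 0.445 (exact permutation p = 0.200), and for *Myh7* 0.00304% ± 0.00107 and 0.00730% ± 0.00674 (exact permutation p = 0.229). The p-values of these 4 shares are not adjusted. None of the 4 differed beyond the spread between muscles, and leaving out any one muscle brought none of their exact permutation p under 0.05. Uba1 replicate 2 weighed most, since without it the difference was -2.06 percentage points for *Myh4* and 1.75 for *Myh1*. Without NT replicate 1 these were -9.20 and 8.74. For *Myh7* the difference was 0.000974 percentage points without Uba1 replicate 2, and for *Myh2* it was 0.208 without Uba1 replicate 4. The summed TPM were 20441 ± 2065 in NT and 19025 ± 2432 in Uba1 muscles (SD, n = 4 each; exact permutation test of log2 values, two-sided, p = 0.429), and the sum was higher with Uba1 siRNAs in 1 of 4 mice. The log2 difference of the sum was -0.11, and it ran from -0.17 to -0.044 with each muscle left out.

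**Figure D2:**
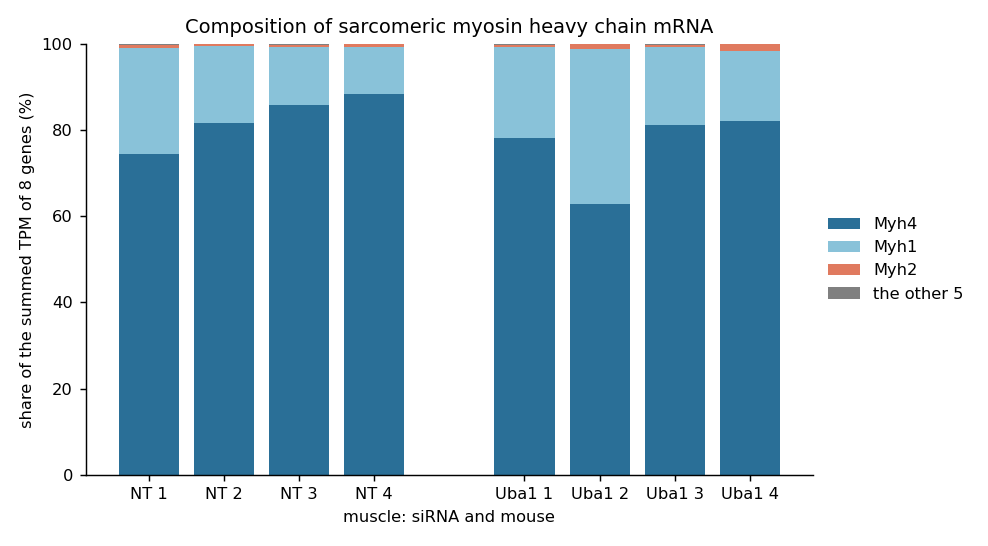
Stacked bars of the share (%) of *Myh4*, *Myh1*, *Myh2* and the other 5 genes in the summed TPM of the 8 myosin heavy chain genes, 1 bar for each muscle, NT on the left and Uba1 on the right. *Myh4* takes 62.9% to 88.5% of each bar, with the lowest share in Uba1 replicate 2, where *Myh1* takes 35.8%.

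The developmental chains had the widest range over the 8 muscles, which rested on Uba1 replicate 2. *Myh3*, the embryonic chain, was at 12.2, 5.39, 21.7 and 8.99 TPM in NT replicates 1 to 4 and at 14.0, 0.760, 11.8 and 6.45 TPM in Uba1 replicates 1 to 4. *Myh8*, the perinatal chain, was at 11.5, 4.51, 15.9 and 7.28 TPM in the NT muscles and at 13.4, 0.994, 12.4 and 4.79 TPM in the Uba1 muscles. Both genes were highest in NT replicate 3, both were lowest in Uba1 replicate 2, and both were low in the 2 muscles of mouse 2. The highest value was 28.5 times the lowest for *Myh3* and 16.0 times for *Myh8*, while this ratio was 7.28 for *Myh7*, 4.16 for *Myh2*, 2.40 for *Myh1* and 1.94 for *Myh4*. Without Uba1 replicate 2 it was 4.01 for *Myh3* and 3.54 for *Myh8*, and that of *Myh2* stayed at 4.16. The log2FC of *Myh3* was -0.73 (SE 0.647, interval -2.19 to 0.73, limma adjusted p = 0.541) and that of *Myh8* was -0.53 (SE 0.610, interval -1.90 to 0.85, limma adjusted p = 0.639). Each was higher with Uba1 siRNAs in 1 of 4 mice, mouse 1. Both values moved most with Uba1 replicate 2, without which the log2FC of *Myh3* was -0.061 and that of *Myh8* 0.068 when the groups were compared without pairing. Within mice, *Myh3* had ratios of 0.141, 0.544 and 0.718 and *Myh8* of 0.220, 0.779 and 0.658 in mice 2, 3 and 4. With the mouse as a block and both legs of mouse 2 left out, the log2FC was -0.35 for *Myh3* (SE 0.175, limma adjusted p = 0.280) and -0.21 for *Myh8* (SE 0.139, limma adjusted p = 0.361). The adipocyte markers *Adipoq* (log2FC -0.94, limma adjusted p = 0.322) and *Plin1* and the macrophage marker *Cd68* were lowest in that muscle too, with r of 0.78, 0.76 and 0.78 with *Myh3*. The other markers on these lists were not lowest there, among them *Fabp4* (log2FC 0.031, r 0.10), *Itgam* (0.20, r 0.45) and *Csf1r* (0.13, r 0.57). Of 3 adipocyte markers 2 were lowest in that muscle, and of 6 leukocyte markers 1, and their part in the *Myh3* and *Myh8* values was not tested. *Myh3* and *Myh8* tracked each other, with a ratio between 0.765 and 1.36 in all 8 muscles and a Pearson r of 0.98 (Spearman's rho 0.98, n = 8 muscles of 4 mice that share a scaling, so no p is given). Without Uba1 replicate 2 the r was 0.96.

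The muscle by muscle pattern of *Myh3* and *Myh8* was shared by other genes of developing and regenerating fibers. Of 10 developmental muscle genes, 8 were lowest in Uba1 replicate 2, as were 19.4% of all genes tested, and 9 were highest in NT replicate 3, as were 5.11% of all genes tested. *Myl4*, the embryonic light chain, had an r of 0.99 with *Myh3* over the 8 muscles, and *Actc1*, the cardiac actin that is also made in embryonic skeletal muscle, had an r of 0.95. Over the 10 genes this r ran from 0.19 for *Myod1* to 0.99, with a median of 0.82, beside 0.22 over all genes tested. A high r was not particular to this list, since the median was 0.75 for the fast fiber genes described below. *Actc1* was at 1532, 751, 2071 and 1006 TPM in NT replicates 1 to 4 and at 1680, 189, 1821 and 437 TPM in Uba1 replicates 1 to 4, so that it too was lowest in Uba1 replicate 2. *Actc1* had the lowest log2FC of the list, -0.81 (SE 0.691, limma adjusted p = 0.525), which was -0.18 without Uba1 replicate 2. The highest was that of *Myod1*, a transcription factor of the myogenic lineage, at 0.34 (SE 0.169, limma adjusted p = 0.319), and it was higher with Uba1 siRNAs in 4 of 4 mice, with 0.19 left without Uba1 replicate 1. Of the 9 genes of this list that were tested, 0 passed an adjusted p of 0.05, 0 passed an unadjusted p of 0.05, beside 16.0% of all genes higher and 1.98% lower, and the median log2FC was -0.39. Of the 9, 1 was above 0, beside 81.8% of all genes, and with median-ratio scaling again 1, beside 50.7%. With the mouse as a block 0 passed the adjusted p, while 1 was higher and 2 lower at an unadjusted p under 0.05, beside 22.4% of all genes higher and 2.80% lower in that fit. The summed TPM of the list ranged from 810 to 2182 with NT siRNAs and from 225 to 1907 with Uba1 siRNAs.

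**Figure D3:**
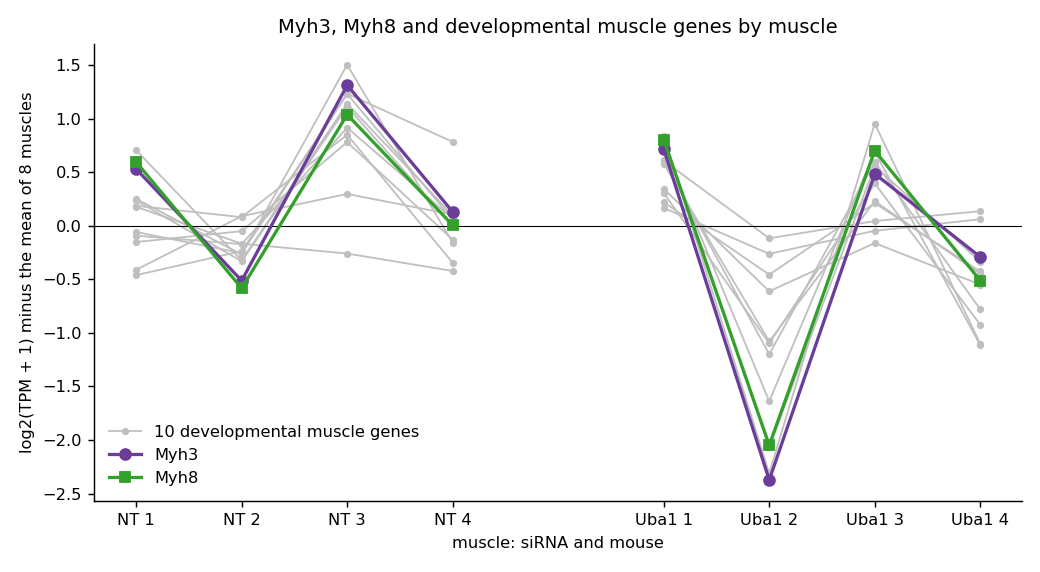
Difference of log2(TPM + 1) from the gene's mean over the 8 muscles, for *Myh3* (purple), *Myh8* (green) and 10 developmental muscle genes (gray), in the 4 NT and the 4 Uba1 muscles. *Myh3* and *Myh8* move together, with their highest value in NT replicate 3 and their lowest in Uba1 replicate 2, and most gray lines have the same lowest and highest muscle.

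*Myh13* and *Myh6*, the chains of extraocular muscle and of the heart, were present at 0.822 to 2.50 TPM. *Myh13* was at 2.25, 2.50, 2.08 and 2.25 TPM in NT replicates 1 to 4 and at 1.72, 1.68, 1.22 and 2.28 TPM in Uba1 replicates 1 to 4. Uba1 replicate 4 lay within the NT range and the other 3 Uba1 muscles below it. *Myh13* had a log2FC of -0.28 (SE 0.117, interval -0.54 to -0.012), with an unadjusted p of 0.0423 and an adjusted p of 0.261 from limma, while the exact permutation test of its log2 values gave p = 0.114 (two-sided). Its unadjusted p stayed under 0.05 without NT replicate 3 or Uba1 replicate 4, and not without any one of the other 6 muscles. *Myh6* was at 1.24, 1.81, 1.30 and 1.66 TPM in the NT muscles and at 1.02, 1.28, 0.822 and 1.63 TPM in the Uba1 muscles. It was lower with Uba1 siRNAs in each of the 4 mice, by ratios of 0.631 to 0.985, with a log2FC of -0.20 (SE 0.131, interval -0.50 to 0.094, limma adjusted p = 0.413). *Myh13* and *Myh6* had an r of 0.89 over the 8 muscles (Spearman's rho 0.86, no p given), and the cause of this was not tested. The 2 genes lie on different chromosomes, and their coding identity, 75.97%, is the lowest of any pair of the 8.

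**Figure D4:**
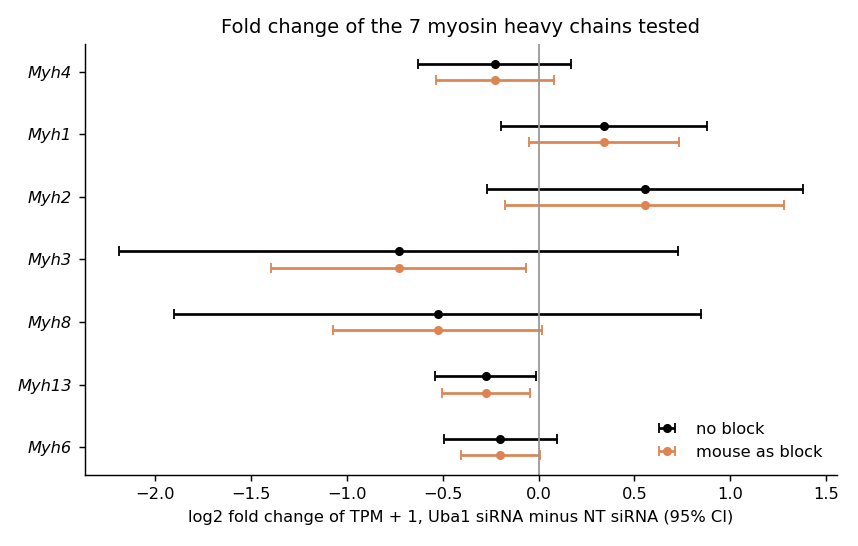
Log2FC of TPM + 1 (Uba1 minus NT) of the 7 genes tested with limma, with 95% confidence intervals, without (black) and with (orange) the mouse as a block. Without the block only the interval of *Myh13* lies below 0 throughout, from -0.54 to -0.012, and with it those of *Myh13* and *Myh3*.

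The 2 legs of a mouse can be compared directly, and with the mouse as a block (replicate block) 57 genes were called across the table, 0.494% of those tested, but 0 of the 7 members. Under the block 0 members were higher and 2 lower at an unadjusted p under 0.05, beside 22.4% and 2.80% of all genes. These were *Myh3* (limma adjusted p = 0.174) and *Myh13* (limma adjusted p = 0.151), both lower with Uba1 siRNAs. With the block and median-ratio scaling together, 5 of the 7 were lower at that p (*Myh3*, *Myh4*, *Myh6*, *Myh8* and *Myh13*) and 0 higher, beside 8.76% of all genes lower and 6.96% higher, and 0 were called. In the block fit without that scaling, the adjusted p of the other 5 ran from 0.205 for *Myh6* to 0.295 for *Myh4*. Leaving out both legs of each mouse in turn, an alternative chosen after seeing the data, changed the calls for 1 mouse. Without mouse 1, *Myh1* (log2FC 0.57, SE 0.0785, limma adjusted p = 0.0236) and *Myh2* (log2FC 0.99, SE 0.149, limma adjusted p = 0.0302) were called as higher and the other 5 were not, beside 1.45% of all genes called as higher and 2.52% called in either direction in that fit. Mouse 1 was the mouse in which both chains were lower with Uba1 siRNAs. Without mouse 2, 3 or 4, 0 members were called, beside 0.225%, 0.0607% and 0.252% of all genes, and the log2FC ran from 0.23 to 0.29 for *Myh1* and from 0.29 to 0.57 for *Myh2*.

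Among the other myosin II heavy chains, *Myh14*, a nonmuscle chain, differed most. It was at 11.6, 12.7, 11.1 and 13.3 TPM in NT replicates 1 to 4 and at 17.6, 18.0, 16.0 and 16.9 TPM in Uba1 replicates 1 to 4. The groups did not overlap, and all 4 mice had more *Myh14* in the Uba1 muscle. Its log2FC was 0.46 (SE 0.0743, limma adjusted p = 0.0644), and with the mouse as a block the adjusted p was 0.0478. With median-ratio scaling the log2FC was 0.35, and *Myh14* was called neither with the block (limma adjusted p = 0.0560) nor without it (0.230). *Myh11*, the smooth muscle chain, had the lowest log2FC of this list, -0.30 (limma adjusted p = 0.340), and -0.16 without NT replicate 1. It is itself one of 4 smooth muscle markers, and the others were also below 0, with log2FC of -0.24 for *Acta2*, -0.27 for *Tagln* and -0.48 for *Cnn1* (limma adjusted p = 0.173, lower in 4 of 4 mice). The 4 markers summed to 109 to 190 TPM in NT and 100.2 to 138 TPM in Uba1 muscles, and whether the *Myh11* value reflects them was not tested. Of the 5 genes (*Myh7b*, *Myh9*, *Myh10*, *Myh11* and *Myh14*), 0 passed the adjusted p without the block, beside 0.0260% of all genes, and the median log2FC was -0.055. At an unadjusted p under 0.05, 1 was higher (*Myh14*) and 0 lower, beside 16.0% and 1.98% of all genes. With median-ratio scaling 1 was higher and 2 lower at that p, beside 4.43% and 6.18%.

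The partners of the fast chains were examined as a list of 11 fast fiber genes, all of which were tested. None passed an adjusted p of 0.05 (0 of 11), 1 was higher at an unadjusted p under 0.05 and 0 were lower, beside 16.0% and 1.98% of all genes, and the median log2FC was -0.11. The 1 gene was *Mylk2*, the kinase of the fast regulatory light chain, with a log2FC of 0.41 (SE 0.169, limma adjusted p = 0.247) and higher values with Uba1 siRNAs in 4 of 4 mice. The other 10 had values below 0, the lowest being *Mylpf*, the fast regulatory light chain itself, at -0.32 (limma adjusted p = 0.379), and at -0.15 without Uba1 replicate 2. These 10 were also all at their lowest in Uba1 replicate 2, as *Myh4* was and 19.4% of all genes tested were. With median-ratio scaling 7 of the 11 were lower at an unadjusted p under 0.05 and 0 higher, beside 6.18% of all genes lower and 4.43% higher, while with quantile normalization 0 of the 11 reached that p.

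Of the 12 slow fiber genes, 0 passed the adjusted p and 0 the unadjusted p, beside 16.0% of all genes higher and 1.98% lower at the latter. The median log2FC was -0.016, and 5 of the 12 were above 0, beside 81.8% of all genes. With median-ratio scaling 4 of the 12 were above 0, beside 50.7% of all genes. With the mouse as a block 0 were called, and 1 was higher and 1 lower at an unadjusted p under 0.05, beside 22.4% and 2.80% of all genes. These were *Ankrd2*, a stress-responsive ankyrin repeat protein (log2FC 0.44, limma adjusted p = 0.111, higher in 4 of 4 mice), and *Lmod2*, a leiomodin of the thin filament (-0.31, limma adjusted p = 0.112, lower in 4 of 4 mice), both named after their values were seen. With the block and median-ratio scaling *Lmod2* was called (-0.44, limma adjusted p = 0.0489). *Myl3*, the slow essential light chain, had the highest log2FC (0.58, limma adjusted p = 0.446) and *Tnni1*, the slow troponin I, the lowest (-0.47, limma adjusted p = 0.645). Both values moved with single muscles left out. Without Uba1 replicate 2, *Tnni1* was at -0.029 and *Myl3* at 0.32. *Tnni1* was at -0.15 without NT replicate 3, -0.26 without Uba1 replicate 4, -0.86 without Uba1 replicate 1, -0.71 without Uba1 replicate 3 and -0.70 without NT replicate 2, and *Myl3* at 0.36 without Uba1 replicate 4. *Myl3* had its highest value in Uba1 replicate 2, as *Myh7* did, whereas *Tnni1* was lowest there. The list thus did not move as one, and *Tnni1* followed *Myh3*, with an r of 0.94 over the 8 muscles.

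Genes that build or anchor the thick filament were examined as a list of 14, which holds the myosin chaperone *Unc45b* and the methyltransferase *Smyd1*. Of these, 0 passed the adjusted p, while *Myom1*, an M-band protein, and *Mybpc1*, slow myosin-binding protein C, were higher at an unadjusted p under 0.05. *Mybpc1* had a log2FC of 0.19 (SE 0.0599, limma adjusted p = 0.182) and *Myom1* of 0.15 (SE 0.0602, limma adjusted p = 0.245). Both were higher in 4 of 4 mice, and their groups did not overlap. These 2 of 14 are to be read against 16.0% of all genes higher and 11.6% whose groups did not overlap. With median-ratio scaling neither reached that p, *Mybpc1* was at 0.066 (limma adjusted p = 0.769), and the genes that did were *Myom2* and *Trim55*, both lower, beside 6.18% of all genes lower and 4.43% higher in that fit. With the mouse as a block *Mybpc1* kept an unadjusted p under 0.05 and *Myom1* did not (limma adjusted p = 0.157 and 0.227). *Mybph*, myosin-binding protein H, had the lowest value of the list, -0.64 (limma adjusted p = 0.456), which was -1.04 without NT replicate 1, -0.31 without NT replicate 3 and -0.30 without Uba1 replicate 2. *Trim63*, the ubiquitin ligase MuRF1 that acts on thick filament proteins, averaged 243 ± 56.7 TPM in NT and 200.4 ± 20.8 TPM in Uba1 muscles (SD, n = 4 each), with a log2FC of -0.26 (limma adjusted p = 0.377). It was lower in 4 of 4 mice, with an unadjusted p under 0.05 under the block (limma adjusted p = 0.166), and was named here after its values were seen.

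Of 18 regulators of fiber type, 17 were tested and 0 passed the adjusted p, while 4 were higher and 1 lower at an unadjusted p under 0.05. *Ppargc1a*, the coactivator of oxidative metabolism, *Esrrg*, an estrogen-related receptor, and *Tead1*, a partner of the Vgll cofactors, were among those that were higher, with log2FC of 0.39, 0.36 and 0.37 (limma adjusted p = 0.168, 0.177 and 0.187). *Rcan1*, whose mRNA responds to calcineurin, was the 1 that was lower, at -0.47 (SE 0.141, limma adjusted p = 0.177). *Ppargc1a*, *Esrrg* and *Tead1* were higher, and *Rcan1* lower, with Uba1 siRNAs in 4 of 4 mice. The 4 of 17 are to be read against the 16.0% of all genes tested that were higher at this threshold, and the 1 of 17 against 1.98% lower. The split turned with the scaling, to 1 higher (*Ppargc1a*) and 4 lower with median-ratio scaling and to 2 higher and 4 lower with quantile normalization. Beside these stand 4.43% of all genes higher and 6.18% lower in the former fit and 4.45% and 5.16% in the latter.

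**Figure D5:**
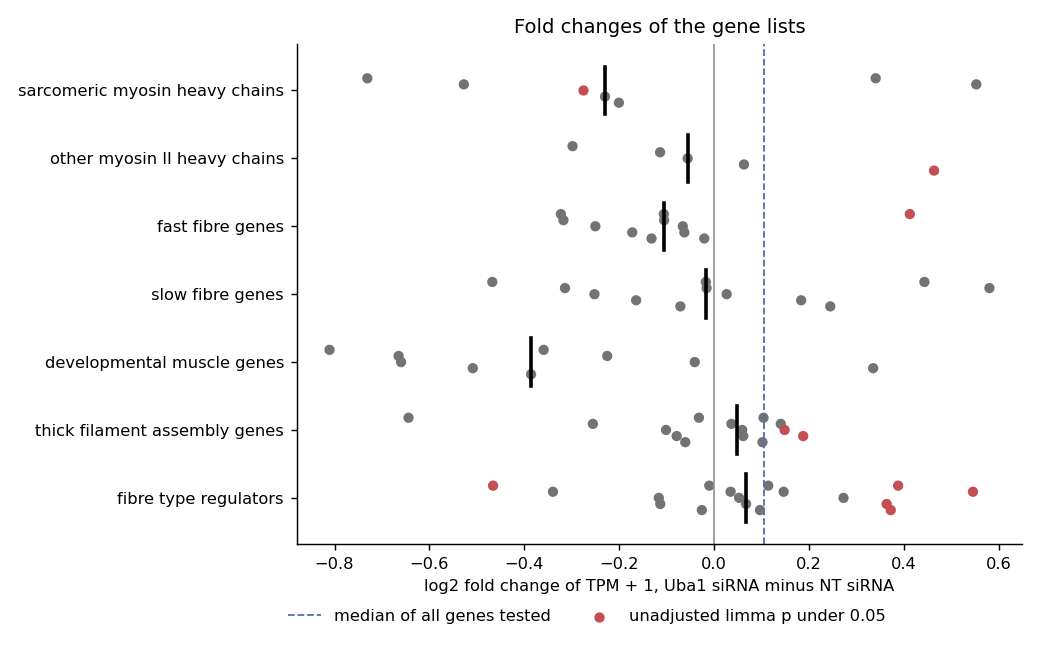
Log2FC of TPM + 1 (Uba1 minus NT) of every tested gene of the 7 lists, 1 point per gene, in red where the unadjusted limma p was under 0.05, with the list's median as a black bar and the median of all genes tested (0.11) as a dashed line. The myosin heavy chains spread from -0.73 to 0.55 around a median of -0.23, and the developmental list has the lowest median, -0.39.

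Across the 8 muscles the adult chains did not all vary together. *Myh1* and *Myh4* had a Pearson r of -0.82 (Spearman's rho -0.64), and of -0.62 without Uba1 replicate 2. The muscles are 8 of 4 mice and all values share the TPM scaling, so these correlations are descriptions without p. Among the 4724 tested genes with a mean of 10 TPM or more, those most like *Myh4* were *Impdh2* (r = 0.97), *Actn3* (0.94), the fast fiber α-actinin, and *Ddx24* (0.93). Those most like *Myh1* were *Rnf114* (0.94), *Epn1* (0.93) and *Bcl2l2* (0.91). For *Myh2* they were *Gpx3* (0.92), *Zfp91* (0.91) and *Adk* (0.91), and for *Myh7* *Zhx1* (0.92), *Fmc1* (0.92) and *Sord* (0.87). Each set is the top of a ranking of 4724 genes over 8 muscles, so such r can come from the selection alone.

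Markers of other cell types were compared beside these values, and none passed the adjusted p in either fit. All 4 fibroblast markers were higher with Uba1 siRNAs in 4 of 4 mice. Their log2FC were 0.57 for *Col1a1* (limma adjusted p = 0.340, and 0.0795 with the block), 0.49 for *Lum* (0.187 and 0.0743), 0.30 for *Pdgfra* and 0.17 for *Dcn*, and their sum ranged from 271 to 517 TPM in NT and from 381 to 642 TPM in Uba1 muscles. Adipocyte markers summed to 62.6 to 73.7 and 59.2 to 75.2 TPM, nearly all of it *Fabp4* (log2FC 0.031), and 1 of 3 was above 0. Leukocyte markers summed to 17.5 to 41.8 and 14.1 to 45.4 TPM, with 2 of the 4 tested above 0 and *Cd3e* at 0 in 1 NT muscle. Endothelial markers summed to 80.2 to 113 and 91.1 to 111 TPM and Schwann cell markers to 41.1 to 65.0 and 31.6 to 75.2 TPM, with 2 of 3 and 2 of 4 above 0. *Kdr*, an endothelial receptor, had an r of 0.85 with *Myh1* and of -0.87 with *Myh4*, the most extreme of the 3 endothelial markers. These r were 0.74 and -0.56 for *Cdh5* and 0.56 and -0.37 for *Pecam1*. The part of these markers in the myosin values was not tested.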

How the data were processed

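RNA of 8 TA muscles (4 NT, 4 Uba1) was extracted and sequenced by the authors as 100-base paired-end reads from libraries that do not mark strand. After trimming, the authors used CLC Genomics Workbench for alignment (GRCm39) and deposited TPM per gene. The annotation, any filter on low values and the treatment of reads that match several genes are not given in the sources used here. Depth is unknown, so precision is given by the 4 muscles per group. The study's methods name a Kruskal-Wallis test on log-transformed TPM, which was run as an alternative.

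From these TPM, log2(TPM + 1) was computed, and the 11530 genes that reached 1 TPM in at least 4 muscles were fitted with limma 3.58.1 in R 4.3.3 (lmFit, eBayes with trend, no covariates), with Benjamini-Hochberg adjustment over all genes tested. The fit was tested on simulated data. Single values were compared by two-sided exact permutation tests, whose smallest p for 4 against 4 is 0.0286. Equal replicate numbers mark the legs of one mouse by the labels and the study's design; the deviations of the 4 pairs from their group means correlated at -0.00037, 0.20, 0.58 and 0.54. Sequence windows and identities were computed from GENCODE M39 transcripts with Biopython 1.88. The members and gene lists were chosen with earlier results of these data known. All members are named, with the gene of largest rise and fall of each list and the 3 genes most like each adult member. Other genes past an unadjusted p were named after their values were seen. The result of 1 gene among these is not reported here.

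The alternatives were a pseudocount of 0.1, no filter, a mean of 5 TPM or more, median-ratio scaling, quantile normalization, rescaling without mitochondrial genes, the replicate block alone and with median-ratio scaling, no moderation, the Kruskal-Wallis test, other denominators of the shares, and leaving out each muscle. Leaving out both legs of each mouse, in the fit with the block, was added after seeing the data.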

Additional observations from a re-analysis of the deposited data

Results flagged for a closer look

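*Myh1* in Uba1 replicate 2 was at 6010 TPM, while the other 3 Uba1 muscles were between 3535 and 3662 TPM. The gap to the nearest muscle was 0.949 of the group's whole range, above Dixon's 95% critical value for 4 samples. Of 52 groups of 4 muscles searched in this way, 1 stood out, and chance alone would give about 1 in 20, or 2.6. Uba1 replicate 2 was also the muscle with the least *Uba1*, *Myh4*, *Myh3* and *Myh8* mRNA and the most *Myh7* mRNA, and it had the largest share of mitochondrial TPM, 50.3%. Whether these values are linked was not tested.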

How the results depend on the processing

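No member was called by limma under the alternatives run, except *Myh1* (0.57) and *Myh2* (0.99) with the replicate block and both legs of mouse 1 left out, an alternative added after the data were seen. The direction of each log2FC was kept under every alternative run for that gene, except that *Myh8* turned to 0.068 without Uba1 replicate 2. For *Myh7*, which did not pass the filter, no value was computed with quantile normalization, a mean of 5 TPM or more, the block with median-ratio scaling, no moderation, the Kruskal-Wallis test or whole mice left out. The difference of *Myh7* passed its exact permutation test, at 0.61, without Uba1 replicate 3. With each muscle left out, the log2FC ran from -0.34 to -0.083 for *Myh4*, 0.16 to 0.51 for *Myh1*, 0.25 to 0.82 for *Myh2*, 0.13 to 0.61 for *Myh7*, -1.09 to -0.061 for *Myh3*, -0.88 to 0.068 for *Myh8*, -0.37 to -0.18 for *Myh13* and -0.29 to -0.12 for *Myh6*. With the block and each mouse left out, it ran from -0.32 to -0.077 for *Myh4*, 0.23 to 0.57 for *Myh1*, 0.29 to 0.99 for *Myh2*, -1.04 to -0.35 for *Myh3*, -0.77 to -0.21 for *Myh8*, -0.37 to -0.21 for *Myh13* and -0.26 to -0.15 for *Myh6*, with 7 to 290 genes called across the table (290 without mouse 1). Over all alternatives the adjusted p of the 7 members tested lay between 0.0236 and 0.923.

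Counts moved more. With the replicate block (paired legs), 57 genes were called across the table in place of 3, 2 members had an unadjusted p under 0.05 in place of 1, as did 2 slow fiber and 3 developmental genes, and 1 other myosin II heavy chain (*Myh14*) was called. With the block and median-ratio scaling, 76 genes were called, 803 were higher and 1010 lower at an unadjusted p under 0.05, 5 members (*Myh3*, *Myh4*, *Myh6*, *Myh8* and *Myh13*, all lower) reached that p, as did 3 other myosin II heavy chains, 6 fast fiber, 3 slow fiber, 3 developmental and 8 regulator genes, and 1 slow fiber gene (*Lmod2*) was called. The block changed no other call of a listed gene. With median-ratio scaling, 23 genes were called, 511 were higher and 712 lower in place of 1844 and 228, with 3 other myosin II heavy chains, 7 fast fiber and 1 slow fiber gene at the unadjusted p. With quantile normalization, 28 were called, 513 were higher and 595 lower, with 2 other myosin II heavy chains, 0 fast fiber genes and 1 slow fiber gene. A mean of 5 TPM or more gave 11 called, 1113 higher, 149 lower and 0 members, and drops *Myh6* and *Myh13* from the test. No filter gave 374 lower and 0 members, rescaling without mitochondrial genes 13 called and 0 members, no moderation 0 members and 0 fast fiber genes, and the Kruskal-Wallis test 0 called, 0 members and 0 fast fiber genes.

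Leaving out each muscle gave 2 to 39 genes called (39 without Uba1 replicate 4, 6 without NT replicate 1, 5 without NT replicate 3 or Uba1 replicate 2), 1158 to 2044 higher (lowest without NT replicate 2, and 1212 without Uba1 replicate 3) and 175 to 282 lower. At an unadjusted p under 0.05 it gave 0 to 2 members (2, *Myh13* and *Myh6*, without Uba1 replicate 4; *Myh1* without NT replicate 1, *Myh13* without NT replicate 3, *Myh2* without Uba1 replicate 1; 0 without the others), 1 to 2 other myosin II heavy chains, 0 to 2 fast fiber, 0 to 2 slow fiber, 0 to 1 developmental, 1 to 3 thick filament and 5 to 7 regulator genes. The causes of these shifts were not tested. TPM without read totals limit what can be said of *Myh7*, *Myh6* and *Myh13*.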
